A study of Mus musculus with 504 samples.

Results

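The genes described here are the nuclear-encoded subunits of the oxidative phosphorylation system. They were picked by symbol alone, as every gene whose name begins with Nduf followed by a, b, c, s or v, with Uqcr, with Cox followed by 4 to 8, or with Atp5, leaving out the 9 names that carry the pseudogene mark -ps. This rule took 94 of the 55450 gene identifiers in the table: 41 for complex I, 8 for assembly factors of complex I (Ndufaf1 to Ndufaf8), 8 for complex III, 19 for complex IV and 18 for complex V. 90 of them are annotated as protein-coding and 4 (Ndufa11b, Ndufb4c, Ndufs6b and Cox6c2) as processed pseudogenes, and Atp5o is present under 2 identifiers. 92 of the 94 passed the filter on low counts, and Cox7b2 and Cox8c did not.

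Oxidative phosphorylation runs in the inner mitochondrial membrane. Complex I takes electrons from NADH, complex III hands them on to cytochrome c, complex IV (cytochrome c oxidase) passes them to oxygen, and the proton gradient that they build drives complex V, the ATP synthase. Each of these complexes joins subunits made from nuclear genes to a few subunits encoded by mitochondrial DNA, so both genomes have to supply parts. Several complex IV subunits and the c ring of complex V come in isoforms, of which Cox6a2, Cox7a1 and Cox8b are best known from heart and skeletal muscle.

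The cells were sorted from mammary tumours of mice that all carried MMTV-PyMT, which drives the tumours, together with MMTV-Flpo and the reporter RC::FrePe. Flp turns on mCherry in mammary tumour cells, and a tamoxifen-activated Cre, Tnc-CreERT2 in one line (animals named TENA) and Cdh2-CreERT2 in the other (animals named Cdh), then changes the colour to GFP for good. All animals received tamoxifen (2 mg per dose, 2 doses each week) from week 9 of age until tumours were taken at about week 13 or 14, so that untreated animals are not among the groups. In the Tnc line the sorted populations were P18 (mCherry high, EpCAM high), P17 (mCherry, EpCAM high), P05 (mCherry, EpCAM negative), P22 (both colours, EpCAM high), P09 (GFP high, EpCAM medium), P16 (GFP, EpCAM medium), P10 (GFP, EpCAM low) and P15 (GFP, EpCAM negative), and in the Cdh2 line P18, P15 and P05. The series description counts P9 among the GFP populations and P18 among the mCherry ones, but prints the name P18 a second time beside the gate given here for P09, and the sample labels give no gates, so the P09 gate is a reading of that list. The colour records whether the Cre driver was ever active after tamoxifen, not the state of a cell when it was sorted.

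Each library was a Smart-seq2 library of 5 pooled cells. The 335 libraries that passed the submitters' quality control held between 313655 and 27849014 counts and were summed by animal and population into 43 sums from 5 animals of each line, so that the animal is the replicate. 2 sums rest on 1 library each (P15 of TENA2524, with 508631 counts, and P16 of TENA2483), and the P18 sum of Cdh1624 rests on 2 shallow libraries. TENA2524 was the only Tnc animal sequenced on lane 2, with all Cdh2 animals. Levels are CPM of a sum, that is library-size-normalised read counts after TMM scaling, and fold changes are log2 values with their SE from edgeR's quasi-likelihood test with the animal as a block, called at an adjusted p below 0.05 (Benjamini-Hochberg over 33768 genes).

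The libraries detected most members. A library of Tnc P18 held reads of 81 to 90 of the 94 members, with a median of 86, and the members took a median of 1% of its counts (0.638 to 2.3%). The medians were 0.764% in P15, 0.467% in P05 and 0.582% in P10, and single libraries of the last 2 populations fell to 16 and 6 detected members. Over genes of any kind, P18 libraries had reads of 14140 at the median, while the medians of P05, P15 and P10 were 7587, 7328 and 7924, so fewer members and fewer genes were detected together. In the 17 wells without cells the members had between 0 and 1293 counts and at most 18 were detected. In these bulk pools fewer cells of a kind and less RNA per cell cannot be told apart.

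Compared per kilobase of exon in Tnc P18, subunits of complex IV stood highest. Cox6a1, the ubiquitous form of subunit VIa, had a level of 729 CPM per kb, Cox6b1 643, Cox8a 617 and Cox4i1 479. These are the common isoforms. Their tissue-restricted relatives Cox6a2, Cox6b2 and Cox4i2, the complex I relative Ndufa4l2 and the c-ring gene Atp5g2 stood at the low end, at levels of at most 1.67 CPM in every P18 sum of the Tnc line except Cox4i2 in TENA2524 (4.52 CPM). Reads of near-identical copies may be shared between genes. The processed pseudogene Cox6c2 carried 0.05 to 0.225 reads for each read of Cox6c, and Ndufb4 itself carried only 0.242 to 0.718 reads for each read assigned to its processed copy Ndufb4c. Values of these pairs, of Ndufs6 and Ndufs6b, of Ndufa11 and Ndufa11b and of both Atp5o entries are therefore uncertain.

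As groups, the members of all complexes had lower mean summed levels in both EpCAM-negative populations of the Tnc line. The summed level of all members was 11443 ± 1627 CPM in P18 (SD, n = 5 animals, 9031 to 12930), 6999 ± 630 in P15 (n = 3, 6488 to 7704) and 7179 ± 1275 in P05 (n = 5, 5581 to 8499), so that every P15 and P05 sum lay below every P18 sum. Complex IV went from 2720 to 3419 CPM in P18 to 1433 to 2112 in P15 and 1280 to 2289 in P05, with no overlap. Complex I went from 2838 to 4474 CPM in P18 to 1100 to 2369 in P15, without overlap, and to 1902 to 2896 in P05, where the highest sum lay just above the lowest P18 sum. Complex V (2447 to 3931 CPM in P18) overlapped in P15 (1737 to 3372) and in P05 (1617 to 2565). Complex III (932 to 1414 CPM in P18) also overlapped, in P15 (348 to 1007) and in P05 (479 to 955). The P15 sum of TENA2524, from a single library, was 6806 CPM for all members. Atp5d and Cox7a2l, described below, made up a large part of it, and Atp5d most of its 3372 CPM for complex V. These sums depend on the scaling of the libraries, as the fold changes below show.

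**Figure D1:**
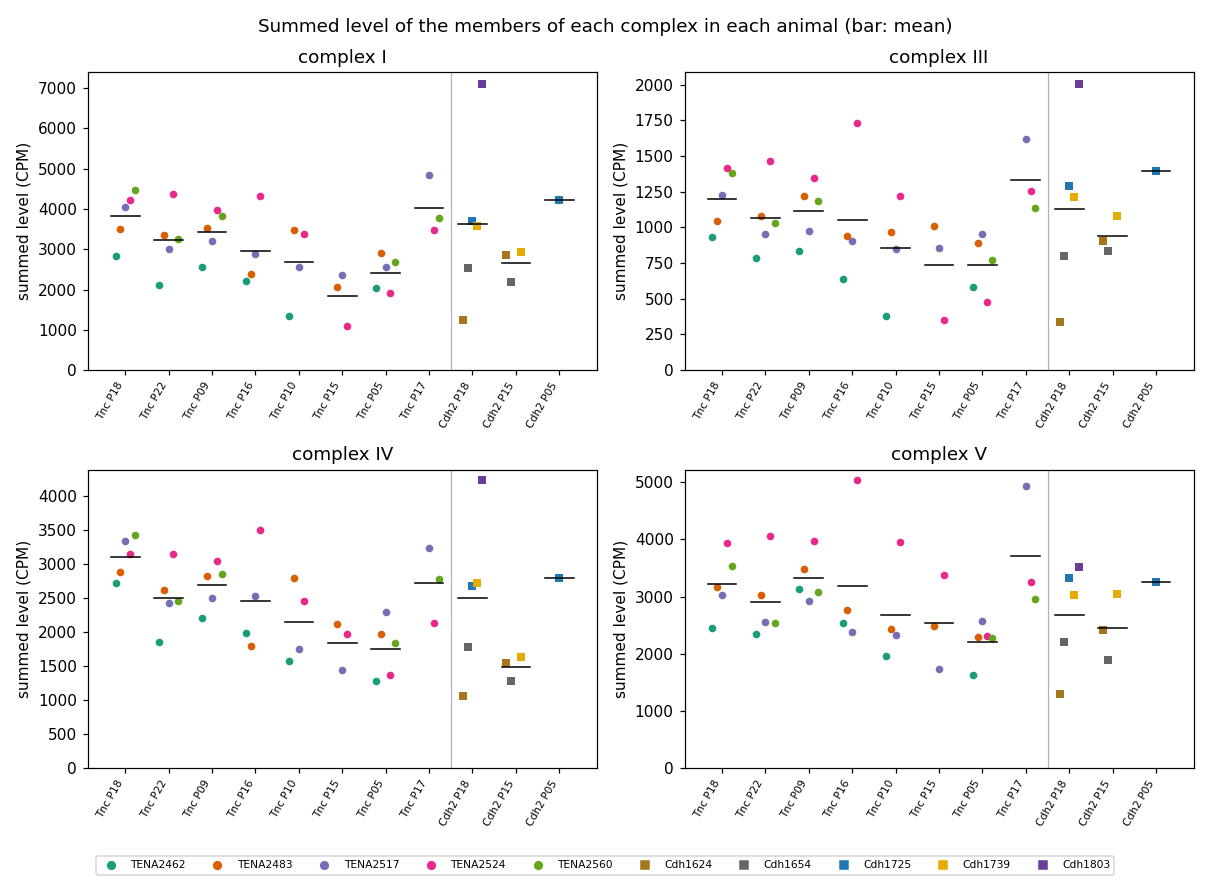
Summed level in CPM (linear axis) of the members of complexes I, III, IV and V in each animal (coloured points) of each sorted population, with the mean as a black bar. Complex IV shows the P15 and P05 sums of the Tnc line (1280 to 2289 CPM) below all P18 sums (2720 to 3419 CPM).

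Single members passed the test in P15 and P05 alone. In P15 against P18, 4 of 92 members were called and all 4 were lower, where 0.729% of all genes were called (246, of which 179 were lower). In P05 against P18, 2 of 92 were called, both lower, where 0.545% of all genes were called (184, of which 65 were lower). No member was called by edgeR in P22, P09 or P17 of the Tnc line or in Cdh2 P15, where 0% of all genes were called, nor in P16 or P10, where 0.00296% were called (1 gene each). At an unadjusted p below 0.05 the numbers of members were 0 in P22, 0 in P09, 1 in P16, 10 in P10, 41 in P15, 15 in P05, 1 in P17 and 2 in Cdh2 P15. As shares of the members these were 0, 0, 1.09, 10.9, 44.6, 16.3, 1.09 and 2.17% in that order. Over all genes the shares were 2.12, 2.52, 6.11, 8.23, 15.2, 13.3, 5.02 and 3.6%, so those of P10 and P05 lay near the background. DESeq2 called 0 members in P22, P09, P16 and P17, 5 in P10, 24 in P15, 7 in P05 and 8 in Cdh2 P15. Of all 33768 genes it called 815, 825, 1630, 1797, 2209, 4915, 4913 and 1881 in the same order. The DESeq2 counts of members are therefore not read as a result about the members.

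Most members had negative fold changes without passing the test. The median fitted log2 fold change of the 92 members was -1.30 in P15 (81 below zero) against -0.61 over all genes tested, -0.66 in P05 (85 below zero) against -0.15, and -0.58 in P10 (82 below zero) against -0.22. It was -0.35 in P16 against -0.21, -0.27 in P22 against -0.01, -0.15 in P09 against -0.03 and -0.09 in P17 against -0.40. In simulated data, the 28911 genes without a change, which were of any level, had a median fitted log2 fold change of -0.62 in P15 and -0.32 in P05. The offset for unchanged genes at the members' levels was not determined. A fitted median below zero therefore does not by itself show a change. With RLE size factors in place of TMM the medians of the members stayed below zero in P15 (-0.73), P05 (-0.15), P10 (-0.13) and P22 (-0.12), and turned positive in P09 (0.04), P16 (0.04) and P17 (0.12). RLE also moved the median of all genes, by more than 0.1 in most of these populations, to -0.18 in P15 and 0.17 in P05, so members lay below it in both. Without the libraries that hold Ptprc at 10 CPM or more, the members' median was -0.99 in P10 (-0.48 over all genes), -0.63 in P05 (-0.30) and 0.05 in P17 (-0.38).

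A second count asks for how many genes every animal of a population lay below, or above, every P18 animal. In P15 it held for 46 of 92 members, 45 below and 1 above, where it held for 18% of all genes tested. In P05 it held for 18 members, all below, where it held for 7.01% of all genes, and in P10 for 10 members, all below, against 5.46%. In P16 it held for 4 members, all below, against 5.21%, in P17 for 5 below and 5 above against 8.66%, and in Cdh2 P15 for 5 below against 5.35%, which are shares near the background. It held for 0 members in P22, against 0.88%, and for 0 in P09, against 1.95%. Of the 18 members in P05, 7 belong to complex IV (of 17 that passed the filter), 5 to complex V (of 18) and 4 to complex I (of 41).

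**Figure D2:**
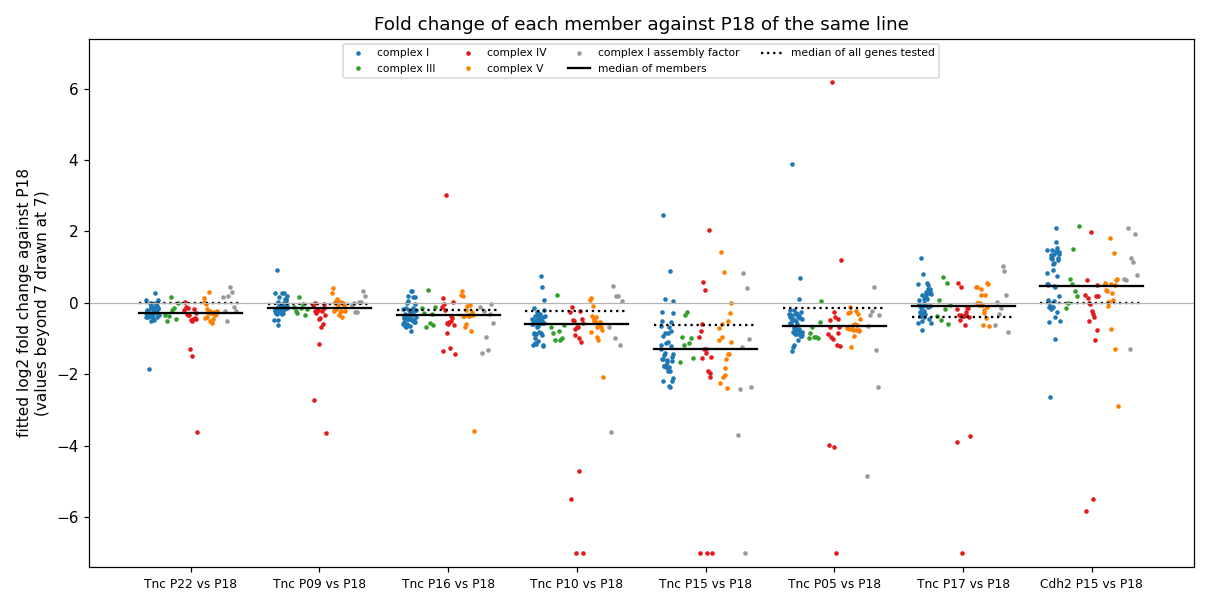
Fitted log2 fold change of each of the 92 members against P18 of the same line (points, coloured by complex), with the median of the members (solid bar) and of all genes tested (dotted bar), where values beyond 7 come from genes with 0 counts in a group and are drawn at 7. The solid bar lies below the dotted one in P15 (-1.30 and -0.61), P05 (-0.66 and -0.15) and P10 (-0.58 and -0.22), and above it in P17.

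Animals differed in how far the members moved. Taken against P18 of the same animal with 1 CPM added to each level, the median log2 difference of the protein-coding members in P05 was -0.58 in TENA2462, -0.36 in TENA2483, -0.50 in TENA2517, -1.27 in TENA2524 and -0.76 in TENA2560. All 5 were below zero. Over all genes with at least 10 CPM in either sum, the same medians in P05 lay between -0.31 and 0.01. In P15 the members' median was -0.53 in TENA2483 and -0.84 in TENA2517, against -0.03 and -0.13 for all such genes, but -3.06 in the single library of TENA2524, against -3.71. In that library the members' median was thus nearer to zero than that of all such genes, and without TENA2524 the fitted median of P15 was -0.93.

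Ndufa4 was the member with the smallest p in P15. Its product was first assigned to complex I and was later recognised as a subunit of complex IV, and the symbol rule counts it with complex I. The gene lies on chromosome 6 (11900292 to 11907497, minus strand, GRCm38). In P18 its level was 351 CPM in TENA2462, 353 in TENA2483, 343 in TENA2517, 414 in TENA2524 and 390 in TENA2560. In P15 it was 127 CPM in TENA2483, 85.7 in TENA2517 and 38.5 in TENA2524, so the groups did not overlap. The log2 fold change was -2.18 ± 0.37 (edgeR adjusted p = 0.0043), and it was -1.50 with RLE size factors (adjusted p = 0.0122) and -1.79 without TENA2524 (adjusted p = 0.0308).

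In P05, sorted as mCherry cells, Ndufa4 was lower as well. Its levels there were 132, 166, 151, 114 and 169 CPM in the same order of animals, all below all P18 values, with a log2 fold change of -1.35 ± 0.29 (edgeR adjusted p = 0.0325). This call was lost with RLE size factors (-0.82, adjusted p = 0.0907) and on leaving out any 1 Tnc animal (adjusted p between 0.0702 and 0.186). The EpCAM-low P10 cells lay in between, at 148, 235, 194 and 229 CPM in TENA2462, TENA2483, TENA2517 and TENA2524. They did not overlap with P18 either, but the fold change of -0.86 ± 0.32 was not called (adjusted p = 0.501). P16 had 159 to 287 CPM, P09 233 to 351, P17 224 to 341 and P22 221 to 403. The order of the means was P18, P22 and P09, P17, P16, P10, P05 and P15, and each neighbouring pair in that order overlapped between animals.

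A share within the members is free of any scaling factor. Ndufa4 took 3.27 ± 0.38% of the counts of all members in Tnc P18 (n = 5 animals, 2.92 to 3.88%). It took 1.18 ± 0.56% in P15 (n = 3, 0.566 to 1.65%), 2.05 ± 0.24% in P05 (n = 5, 1.78 to 2.36%) and 2.45 ± 0.30% in P10 (n = 4, 2.06 to 2.79%), in each case below every P18 animal. The lowest P15 share was that of the single library of TENA2524, where Atp5d and Cox7a2l took a large part of the members' counts. In the Cdh2 line the share was 3.06 ± 0.65% in P18 (n = 5, 2.44 to 4.06%), 1.82 ± 0.44% in P15 (n = 3, 1.34 to 2.22%) and 1.97% in the single P05 sum, so the 3 Cdh2 P15 animals also lay below all Cdh2 P18 animals. Set against P18 of the same animal, the share was lower in 5 of 5 animals in P05, 5 of 5 in P09, 4 of 4 in P16 and in P10, 3 of 3 in P15 and in Cdh2 P15, 4 of 5 in P22 and 2 of 3 in P17. With 5 pairs an exact two-sided sign-flip permutation test cannot go below p = 0.0625, the value found for P05 and for P09 (0.2 after Benjamini-Hochberg adjustment over 16 such comparisons), and with 3 pairs not below 0.25. Without the libraries that hold the leukocyte gene Ptprc at 10 CPM or more, the P05 share was 2.07 ± 0.28%. The P10 share was then 1.85 ± 1.22% (0.068 to 2.79%), and 3 of the 4 P10 libraries of TENA2517 are among those left out.

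**Figure D3:**
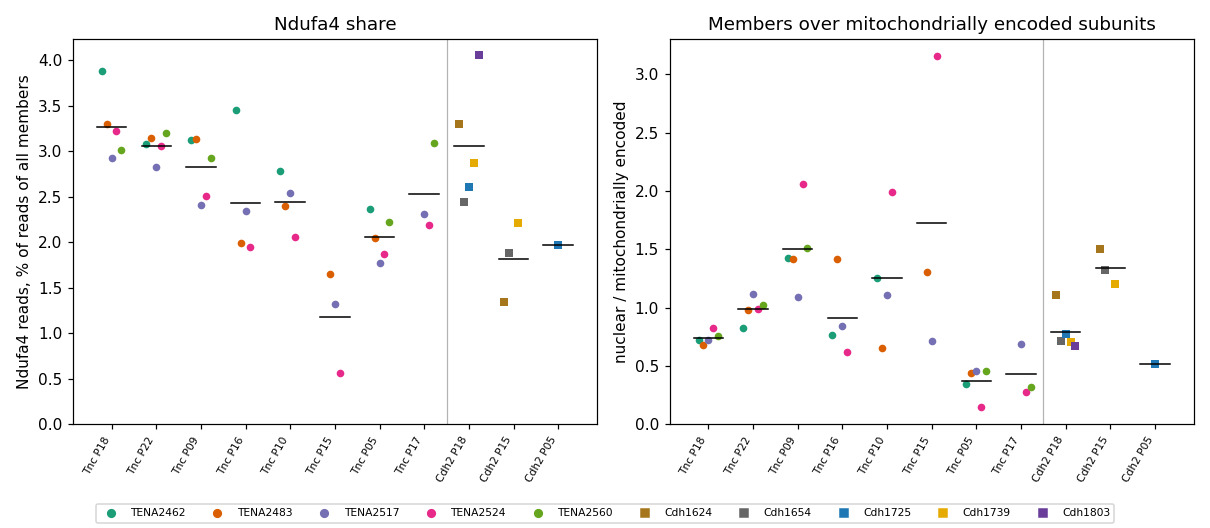
Left, Ndufa4 reads as a percentage of the reads of all members, and right, the summed level of the members divided by that of the 13 mitochondrially encoded subunits, in each animal (points) of each population with the mean as a bar. The Ndufa4 share lies between 2.92 and 3.88% in Tnc P18 and at or below 2.36% in both EpCAM-negative Tnc populations, and the ratio lies between 0.146 and 0.461 in Tnc P05 and between 1.09 and 2.06 in Tnc P09.

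The other members called in P15 belong to 3 complexes. Ndufb9 (chromosome 15, 58933756 to 58939488), an accessory subunit of complex I, had 126, 239, 299, 260 and 393 CPM in P18 of TENA2462, TENA2483, TENA2517, TENA2524 and TENA2560, and 40.8, 67.5 and 57.8 CPM in P15 of TENA2483, TENA2517 and TENA2524. All P15 values lay below all P18 values, with a log2 fold change of -2.32 ± 0.42 (edgeR adjusted p = 0.00648). In P05 it had 107 to 126 CPM, a narrow range that met only the lowest P18 animal. The P15 call was lost with RLE size factors (adjusted p = 0.0774) and without TENA2524 (0.0729).

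Atp5g1 (chromosome 11, 96068852 to 96075670) is 1 of 3 genes for the same c-ring subunit of the ATP synthase. It had 46.2, 89.8, 91, 114 and 112 CPM in P18 in the order above and 20, 23.3 and 30.5 CPM in P15, with a log2 fold change of -2.07 ± 0.46 (edgeR adjusted p = 0.0274). The P15 levels lay below all P18 levels, and the call was lost without any 1 Tnc animal (adjusted p 0.103 to 0.152). Its relative Atp5g3 had 114 to 174 CPM in P18 and 6.42 to 64.5 in P15 (log2 -1.81 ± 0.58, adjusted p = 0.128). Within the 3 genes Atp5g1 held 39 ± 6.17% of the counts in P18 (28.6 to 44.7%) and 45.7 ± 32.2% in P15. The P15 shares were 23.5% in TENA2483, 30.9% in TENA2517 and 82.6% in TENA2524. The wide spread in P15 thus rests on the single library of TENA2524, with 508631 counts.

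Cox6a1 (chromosome 5, 115345642 to 115348981) had 470, 457, 533, 509 and 587 CPM in P18 and 278, 147 and 112 CPM in P15, with a log2 fold change of -1.55 ± 0.37 (edgeR adjusted p = 0.0419). With RLE size factors it was -0.79 and not called (adjusted p = 0.14), and the call was also lost without TENA2462, TENA2517, TENA2524 or TENA2560 (adjusted p 0.118 to 0.233). In P05 it had 203 to 283 CPM, again below all P18 animals, with a fold change of -0.97 ± 0.30 that was not called (adjusted p = 0.123). Cox8a, the common form of subunit VIII, just missed the threshold in both populations, with -1.52 ± 0.38 in P15 (adjusted p = 0.0517) and -1.21 ± 0.31 in P05 (adjusted p = 0.0591). Its levels were 326 to 422 CPM in P18, 65.8 to 205 in P15 and 104 to 255 in P05, without overlap.

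**Figure D4:**
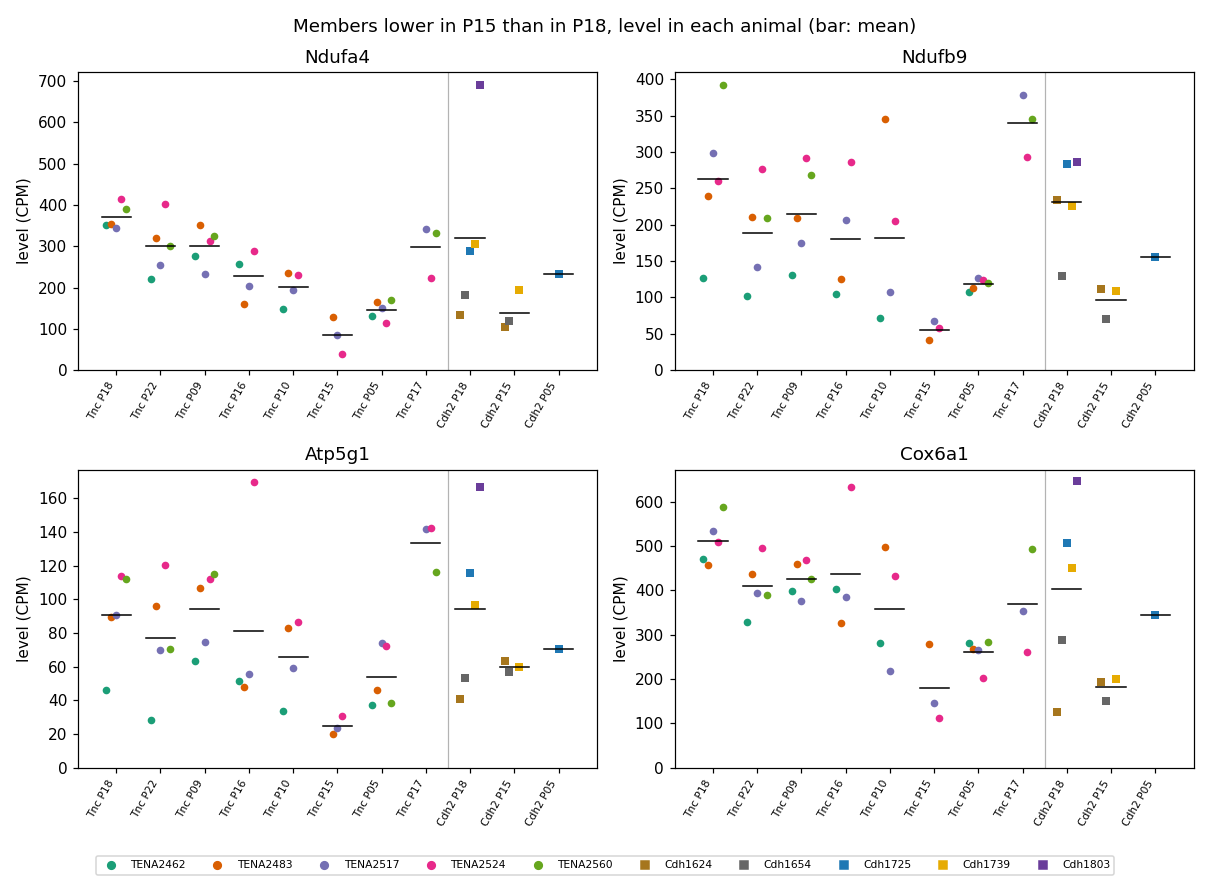
Level in CPM (linear axis) of Ndufa4, Ndufb9, Atp5g1 and Cox6a1 in each animal (points) of each sorted population, with the mean as a bar. For all 4 genes the P15 values of the Tnc line lie below every P18 value of that line, and Ndufa4 steps down from 343 to 414 CPM in P18 over 148 to 235 in P10 to 38.5 to 127 in P15.

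The 250 bases upstream of the RefSeq start of 4 of the genes named above and below are printed here because all 4 were called lower in P15 or P05 while the core motifs described next are present in only 1 of them. Sequences are those of RefSeq on GRCm38.p6, read along the gene from 5′ to 3′, from chr6:11907451-11907700 (minus strand) for Ndufa4, chr11:96075632-96075881 (minus strand) for Atp5g1, chr5:115348959-115349208 (minus strand) for Cox6a1 and chr7:30183921-30184170 (plus strand) for Cox7a1. Capitals mark matches to 3 core motifs of factors known for driving respiratory genes.
Ndufa4: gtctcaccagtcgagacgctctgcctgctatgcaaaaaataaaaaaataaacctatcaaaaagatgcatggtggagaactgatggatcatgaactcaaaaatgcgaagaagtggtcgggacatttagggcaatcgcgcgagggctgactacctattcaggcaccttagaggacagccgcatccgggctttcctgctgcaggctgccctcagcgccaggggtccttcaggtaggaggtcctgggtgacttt
Atp5g1: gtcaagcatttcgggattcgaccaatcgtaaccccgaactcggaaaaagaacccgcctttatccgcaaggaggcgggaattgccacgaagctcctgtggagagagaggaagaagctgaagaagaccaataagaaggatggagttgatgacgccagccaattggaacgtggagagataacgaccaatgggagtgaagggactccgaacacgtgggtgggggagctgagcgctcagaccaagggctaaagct
Cox6a1: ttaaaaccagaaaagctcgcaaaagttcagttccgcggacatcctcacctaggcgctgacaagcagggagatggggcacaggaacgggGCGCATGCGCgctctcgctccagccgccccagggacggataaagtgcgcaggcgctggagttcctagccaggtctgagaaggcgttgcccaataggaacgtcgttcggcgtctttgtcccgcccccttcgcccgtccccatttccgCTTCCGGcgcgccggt
Cox7a1: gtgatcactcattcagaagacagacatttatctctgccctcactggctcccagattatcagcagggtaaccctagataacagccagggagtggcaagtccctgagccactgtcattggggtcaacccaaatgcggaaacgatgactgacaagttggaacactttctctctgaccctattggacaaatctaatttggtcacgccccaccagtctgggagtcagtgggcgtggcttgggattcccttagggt

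The motifs were searched on both strands, as the letters GCGCATGC for the core of NRF1, CCGGAAG for the core of ETS factors such as GABPA, and AAGATGG for the core of YY1, in windows from 250 bases before to 50 after the start. A window was available for 71 members. The NRF1 core was in 11 of the 71 windows (15.5%) and in 3.61% of the windows of all protein-coding genes, the ETS core in 15 (21.1% against 11.9%) and the YY1 core in 10 (14.1% against 6.37%). Atp5k, Atp5l, Cox6a1 and Uqcr11 held both the NRF1 and the ETS core, and in Cox6a1 the palindromic NRF1 match begins 162 bases before the start and the ETS match 16 bases before it. The windows of Ndufa4, Atp5g1 and Cox7a1 held none of these letters. Of the 10 YY1 matches, 9 read in the direction of the gene and lay 10 to 38 bases after the start, and the match in Cox7c read the other way. These are matches of letters and not measured binding.

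Of the 41 members that the symbol rule counts with complex I, 37 lay below zero in P15 (median log2 -1.45) and 38 in P05 (-0.52). These 41 include Ndufa4, Ndufa4l2 and the processed pseudogenes Ndufa11b, Ndufb4c and Ndufs6b. The core subunits of the electron-input arm did not pass the test. Ndufv1, which carries the flavin that accepts the electrons of NADH, had a log2 fold change of 0.04 ± 1.02 in P15 and -0.82 ± 0.86 in P05, and Ndufs1, its iron-sulphur neighbour, -2.37 ± 1.61 and -0.74 ± 1.18 (edgeR adjusted p at least 0.529 in all 4). Their P15 levels show how uneven the 3 animals were, with Ndufv1 between 0 and 175 CPM and Ndufs1 between 0 and 27 CPM, against 43.9 to 87.5 and 27.2 to 41.1 in P18. Ndufa9 and Ndufb8, an arm and a membrane subunit, had -1.40 ± 1.14 and -0.68 ± 0.41 in P15 and were not called. Ndufab1, the mitochondrial acyl carrier protein, had 23 to 37.9 CPM in P18, 0 to 35.7 in P15 and 2.47 to 46 in P05. The assembly factors of complex I had a median of -1.79 in P15 (6 of 8 below zero) and -0.50 in P05 (7 of 8), with none called.

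All 8 members of complex III lay below zero in P15 (median log2 -1.05) and 7 of 8 in P05 (-0.89), and none was called. Uqcrfs1, the Rieske iron-sulphur protein, had 143 to 191 CPM in P18, 4.82 to 172 in P15 and 46 to 180 in P05. Uqcrc1, a core protein, had -0.34 ± 0.58 in P15 and -0.96 ± 0.48 in P05, and Uqcrh, the hinge protein, -0.98 ± 0.54 and -0.53 ± 0.44. For complex V the medians were -1.07 in P15 (16 of 18 below zero) and -0.66 in P05 (18 of 18), and Atp5g1 in P15 was the only call. The catalytic subunits Atp5a1 and Atp5b had -1.03 ± 0.63 and -0.71 ± 0.42 in P15 and -0.70 ± 0.51 and -0.28 ± 0.35 in P05 (edgeR adjusted p at least 0.45). Atp5d had a positive fold change in P15 (1.44 ± 0.54, adjusted p = 0.197), and so had Cox7a2l (2.04 ± 0.62, adjusted p = 0.11), a factor of respiratory supercomplexes. The level of Cox7a2l was 92.2 to 1368 CPM in P15, with the highest value in the single library of TENA2524, where Atp5d, named after its values were seen, also stood highest, at 2673 CPM. All members summed to 6806 CPM there, so both genes weigh on the P15 sums, shares and ratio of that animal.

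Of the 17 tested members of complex IV, 14 lay below zero in P15 (median log2 -1.41) and 15 in P05 (-0.85). Cox4i1, the common isoform of its pair, and Cox5b had -0.95 ± 0.37 and -0.59 ± 0.42 in P15 and -0.88 ± 0.31 and -0.67 ± 0.35 in P05, and Cox5a had -0.80 ± 0.52 and -0.47 ± 0.42. Cox6b1 had -1.30 ± 0.44 in P15 and -1.03 ± 0.36 in P05, Cox7a2 -1.92 ± 0.76 and -1.17 ± 0.60, and Cox7b -2.09 ± 0.76 and -0.85 ± 0.59. None of these was called (edgeR adjusted p at least 0.153).

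The minor isoform Cox7a1 showed the sharpest split between populations. Cox7a1 (chromosome 7, 30184144 to 30186078) replaces Cox7a2 in the enzyme of striated muscle. In Tnc P18 its level was low, at 1.58, 7.69, 2.66, 6.25 and 7.67 CPM in the order above, and 50 of 55 libraries held at least 1 read. It had 0 reads in all 32 libraries of P05 and in all 12 of P15. From pooled counts without scaling factors, with 3 counts over the population as the floor, P05 was at least 206-fold lower than P18 and P15 at least 77.3-fold lower. The difference was called in P05 (edgeR adjusted p = 0.0325) and not in P15 (adjusted p = 0.0964), and the P05 call was lost on leaving out any 1 Tnc animal (adjusted p 0.0857 to 0.153).

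In other Tnc populations Cox7a1 reads were found in 33 of 50 libraries of P22, 34 of 48 of P09, 8 of 11 of P17, 7 of 26 of P16 and 4 of 25 of P10. In the Cdh2 line they were found in 46 of 50 libraries of P18, 2 of 16 of P15 and 0 of 10 of P05. Library depth overlapped between these groups, with medians of 5878479 counts in P18, 3406751 in P05 and 3732833 in P15 of the Tnc line and of 8934676, 8629760 and 6892205 in P18, P05 and P15 of the Cdh2 line. As a share of the reads of Cox7a1 and Cox7a2, Cox7a1 made up 2.11% in Tnc P18 and 3.75% in Cdh2 P18. The 0 reads of Tnc P05 and P15 allow at most 0.0263% and 0.056%, and those of Cdh2 P05 at most 0.0306% (3 counts of the pair's total, for counting error only).

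**Figure D5:**
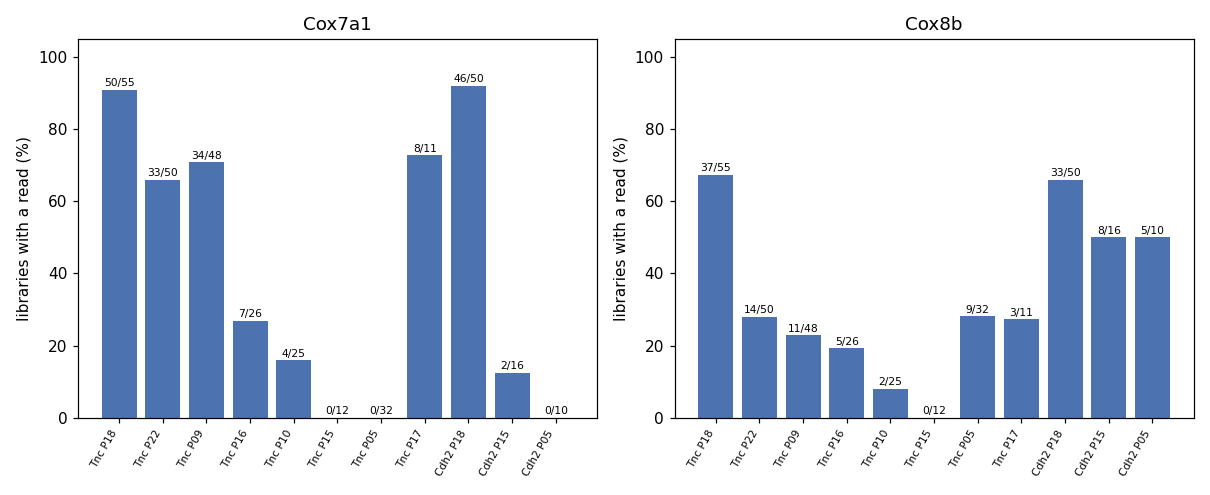
Percentage of the libraries of each population with at least 1 read of Cox7a1 (left) and Cox8b (right), with the number of such libraries over all libraries above each bar. Cox7a1 was found in 50 of 55 libraries of Tnc P18 and 46 of 50 of Cdh2 P18, and in 0 of 32, 0 of 12 and 0 of 10 libraries of Tnc P05, Tnc P15 and Cdh2 P05.

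Cox8b, the muscle relative of Cox8a, did not follow Cox7a1. In the Tnc line it was found in 37 of 55 libraries of P18 and in 0 of 12 of P15, but in 9 of 32 of P05. The P05 levels were 6.54 CPM in TENA2462, 16.5 in TENA2483, 0 in TENA2517, 0.519 in TENA2524 and 6.41 in TENA2560, which overlapped with 0.958 to 19.4 CPM in P18. TENA2524 had the highest level in P18 (19.4 CPM), P09 (16.5) and P22 (11.3), where no other animal passed 5.54. The highest level of all was 61.3 CPM in the single Cdh2 P05 sum, in which Cox8b made up 15.6% of the reads of Cox8a and Cox8b. Muscle marker genes (Myh4, Ckm, Actn3, Mb and Tnnt3) summed to 0.613 CPM in that sum, with Myh4, Actn3 and Tnnt3 at 0, and to 7.66 to 28.7 CPM in Tnc P18. In Tnc P05 they summed to 2.12 to 229 CPM, and each of these genes had reads there. The part of muscle transcripts in the reads of these isoforms was not tested. Cox6a2 had 105 reads in 1 library of P05 from TENA2462, 3 reads in P16 and none elsewhere. Ndufa4l2, the hypoxia-linked relative of Ndufa4, had 67 reads in P05, of which 89.6% came from 1 library of TENA2483, and Cox4i2, the lung isoform, had 39 reads in 1 library of that animal.

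The balance between members and the 13 mitochondrially encoded subunits moved in opposite directions in different populations. In Tnc P18 the summed level of the members was 0.725, 0.681, 0.72, 0.825 and 0.754 times that of the mitochondrially encoded genes in TENA2462, TENA2483, TENA2517, TENA2524 and TENA2560. In P05 the ratio was 0.345, 0.44, 0.461, 0.146 and 0.458, below all P18 animals. In the GFP-high P09 cells it was 1.43, 1.42, 1.09, 2.06 and 1.51, above all P18 animals, and in the double-positive P22 cells 0.827, 0.982, 1.12, 0.985 and 1.03, again above all of them. Against P18 of the same animal the ratio was lower in 5 of 5 animals in P05 and higher in 5 of 5 in P09 and in P22, with p = 0.0625 in each by the exact two-sided sign-flip permutation test, the smallest that 5 pairs allow (0.2 after adjustment over the same 16 comparisons). The values were 0.28 to 0.691 in P17 (lower in 3 of 3), 0.655 to 1.99 in P10, 0.62 to 1.41 in P16 and 0.716 to 3.15 in P15. The value of 3.15 is that of the single library of TENA2524. Without the libraries that hold Ptprc at 10 CPM or more, the P05 ratio was 0.396 ± 0.168 against 0.37 ± 0.134 with them (n = 5), and the P10 ratio was 1.0 ± 0.815 (0.0717 to 1.99) against 1.25 ± 0.553 (n = 4).

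In P09 the mitochondrially encoded genes were lower while the members kept levels near those of P18, and in P05 the members were lower. The summed level of the mitochondrially encoded genes was 15430 ± 1782 CPM in P18 (12450 to 17154), 7258 ± 1178 in P09 (6034 to 8842) and 22314 ± 10989 in P05 (16185 to 41886, the highest in TENA2524 and at most 18450 in the other animals). The members stood at 9031 to 12930 CPM in P18, 8836 to 12442 in P09 and 5581 to 8499 in P05. None of the 13 mitochondrially encoded genes was called in any comparison, although all 13 had negative fold changes in P09 (median log2 -1.06) and positive ones in P05 (0.68).

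Other genes of the pathway were not called in any comparison against P18. Complex II, whose 4 subunits are all nuclear, had medians of -0.63 in P15 and -0.04 in P05. The 27 assembly factors of complexes III to V had -1.23 and -1.14 (22 and 19 below zero), the 13 enzymes of the TCA cycle -0.76 and -0.58 (12 and 12 below zero) and the pair of Cycs, which encodes cytochrome c, and Cyc1, which encodes the cytochrome c1 subunit of complex III that the symbol rule does not take, -1.52 and -0.54. The 11 regulators of mitochondrial genes, among them Ppargc1a, Nrf1, Gabpa, Yy1 and Tfam, had -1.11 in P15 and 0.54 in P05. All genes tested had -0.61 and -0.15.

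In the Cdh2 line the members of P15 showed no common direction. 64 of 92 lay above zero (median log2 0.48, against 0.00 for all genes), but the median was -0.29 without Cdh1624, whose P18 sum is the shallow one, and -0.16 with sums of at least 3 libraries. Per animal it was 1.61 in Cdh1624, -0.10 in Cdh1654 and -0.29 in Cdh1739. Ndufa4 had 134, 181, 289, 306 and 690 CPM in P18 of Cdh1624, Cdh1654, Cdh1725, Cdh1739 and Cdh1803 and 105, 119 and 195 CPM in P15 of Cdh1624, Cdh1654 and Cdh1739, lower than P18 in each of the 3 animals (log2 -0.54 ± 0.37, edgeR adjusted p = 1). Ndufb9 had 129 to 286 CPM in P18 and 70.1 to 112 in P15, without overlap (log2 -1.0 ± 0.42, edgeR adjusted p = 1), and was lower than P18 of the same animal in 3 of 3 animals. The ratio of members to mitochondrially encoded genes was 1.2 to 1.5 in Cdh2 P15 and 0.671 to 1.11 in Cdh2 P18, without overlap. Cdh2 P05, from 1 animal and so without a test, had 11755 CPM for all members and a ratio of 0.517.

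Comparisons between the lines called no member by edgeR. Between P18 of the lines and between P15 of the lines 0% of all genes were called. At an unadjusted p below 0.05 there were 3 and 2 members (3.33 and 2.3%, against 2.4 and 10.6% of all genes). DESeq2 called 0 and 1 members, and 3 and 1331 genes of any kind. The lane differs almost fully with the line, so that lane and line cannot be told apart. For the difference of P15 minus P18 between the lines 0.00888% of all genes were called (3 genes) and no member was. At an unadjusted p below 0.05 there were 22 members (23.9%, against 6.94% of all genes), and DESeq2 was not run on this difference. It takes in the P18 sum of Cdh1624 (2 libraries, 879259 counts) and the P15 sum of TENA2524 (1 library, 508631 counts). The members' median in each line moved without the animal concerned, as given above, so the share of 23.9% is not read as a difference between the lines. The fitted difference for Ndufa4 was 1.64 ± 0.52 (adjusted p = 0.38) and for Atp5g1 2.09 ± 0.64 (adjusted p = 0.365).

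Markers of other cell types also differed between the populations. The 8 epithelial markers summed to 9585 to 22560 CPM in Tnc P18, 29.4 to 231 in P15 (with Krt7, Cdh1, Cldn4 and Cldn7 at 0) and 135 to 1616 in P05. The 8 leukocyte and macrophage markers summed to 2.63 to 7.97 CPM in P18 (Ptprc and Adgre1 at 0), 3085 to 14201 in P15 and 18.7 to 15702 in P05, and all 12 libraries of Tnc P15 held Ptprc at 10 CPM or more. The 7 fibroblast markers summed to 0.206 to 7.64 CPM in P18, 0.651 to 611 in P15 and 11.2 to 15925 in P05. The 6 pericyte and smooth muscle markers summed to 0.544 to 10.6 CPM in P18 (Pdgfrb and Des at 0), 0.589 to 2066 in P15 (Rgs5 and Cspg4 at 0) and 14.2 to 976 in P05. In P10 the leukocyte list reached from 4.11 to 15643 CPM (median 640), the epithelial list from 101 to 18647, the fibroblast list from 0.784 to 22.5 and the pericyte list from 3.07 to 44.8. The part of these cells in the lower levels of P15 was not tested, since no library remains there without Ptprc. In Cdh2 P15, where the Ndufa4 share was also below that of P18, the leukocyte list summed to 1.04 to 19 CPM with Ptprc, Tyrobp, Laptm5 and Adgre1 at 0, the fibroblast list to 50.4 to 134, the epithelial list to 89.8 to 199 and the pericyte and smooth muscle list to 550 to 736 with Des at 0. In Cdh2 P18 these lists summed to 0.247 to 111, 0.0581 to 13.1, 1730 to 23893 and 1.75 to 104 CPM in the same order. In the single Cdh2 P05 sum they stood at 2808, 5374, 140 and 701 CPM (Des at 0). The members were not lower there, at 11755 CPM against 11077 in P18 of the same animal. The part of these cells in the Cdh2 values was not tested. In P05 without the 7 libraries that hold Ptprc, Cox7a1 remained called (edgeR adjusted p = 0.0222) and Ndufa4 did not (log2 -1.30, adjusted p = 0.264).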

How the data were processed

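The deposited table holds raw read counts per gene and library, not normalized by the authors, with 55450 gene identifiers and symbols. Per the submitters' processing notes STAR, SAMtools and featureCounts (Subread) were used with mm10, with versions, settings and counting strand not given in the sources used here. Reads carry no molecular identifiers and are not independent molecules, so limits drawn from counts cover counting error only. Of 504 wells, 335 libraries passed the submitters' quality control, 152 did not and 17 were empty. Passing libraries were summed by animal and population. Cdh2-line P17 cells were not analysed here.

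Sums were scaled by TMM and tested with edgeR 4.0.16 (quasi-likelihood test, R 4.3.3, limma 3.58.1) over 33768 genes. The populations of a line come from the same animals by the labels, so the animal was a block within a line. Between lines the fits held only P18 or only P15 sums (17878 and 14028 genes) without a block. DESeq2 1.42.0, RLE size factors, another filter and other choices of libraries and animals were alternatives. Tested on simulated data (29111 genes, 50 genes per size), the P05 comparison called 56% of genes changed by 5 and 2% of those lowered by 2 on the log2 scale, and the P15 comparison called 2% of genes lowered by 5 and 36% of those raised by 5, with 1 and 0 false calls. Each simulated gene had the spread fitted for genes of its level, without differences between animals. These rates need not hold for a gene whose own spread differs.

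The members and the gene lists were chosen with earlier results of these data known. Named were fixed representatives of each complex, isoform pairs, up to 5 called members per direction and comparison, and the 3 highest and 3 lowest members in P18. Genes outside this rule are said to be so. The values of 1 member are not reported here. Gene positions are from GENCODE M21 and upstream sequences from RefSeq, both on GRCm38, the assembly that mm10 names.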

Additional observations from a re-analysis of the deposited data

Results flagged for a closer look

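In groups of 4 or 5 animals, 25 of 230 combinations of a measure and a population had 1 animal that stood apart from the others by Dixon's criterion. Chance gives about 1 in 20 only for independent values with a normal distribution. Here the combinations share animals, and some levels were 0 in all other animals (Cox4i2 and Cox6a2 in P05, Cox6b2 in P16 and Cox7a1 in P10). The number of cases therefore cannot be set against that rate. TENA2524 was that animal in 18 of the 25. It stood highest for the summed level of complex V in P16 (5038 CPM) and of the mitochondrially encoded subunits in P05 (41890 CPM). In P16 it also stood highest for Cox5b (99.91 CPM), Atp5a1 (842.7), Cox6b2 (1.921), Cox7a1 (16.74), Atp5g1 (169.7) and Atp5g3 (287.1), and in P10 for Atp5a1 (745.5 CPM) and Cox7a1 (3.49). In P22 it was highest for Cox7a1 (6.902 CPM), Cox8b (11.3) and Atp5g3 (199.4), in P09 for Cox8b (16.45) and Atp5g3 (168.3), and in P18 for Cox8b (19.35) and Cox4i2 (4.523), and it was lowest for Cox6a1 in P05 (203.3 CPM). TENA2524 is also the Tnc animal on the other sequencing lane, and lane and animal cannot be told apart for it.

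The other 7 cases came from 4 animals. TENA2462 stood lowest for Ndufs1 in P10 (1.869 CPM) and highest for Cox6a2 in P05 (7.715 CPM). TENA2483 stood highest for Ndufa4l2 (2.308 CPM) and Cox4i2 (1.5 CPM) in P05. Cdh1803 stood highest for Cox7a2 (461.8 CPM) and Cox8a (597.5 CPM) in Cdh2 P18, and Cdh1624 for the ratio of members to mitochondrially encoded genes in Cdh2 P18 (1.111).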

How the results depend on the processing

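Counts of members called depended on the test. DESeq2 called 5 members in P10, 24 in P15, 7 in P05 and 8 in Cdh2 P15, and 1 between the P15 populations of the lines, where 1 fit over both lines without a block also called 1. Over all genes DESeq2 called 2209, 4915, 4913, 1881 and 1331 in the same order. In P15 (4 called by edgeR) the count was 9 with at least 1 CPM in at least 10 sums, 7 with sums of at least 3 libraries, 2 with equal weight of libraries and 0 with only the 2 populations compared in the fit. In P05 (2 called) it was 10 with sums of at least 3 libraries, 1 with RLE size factors, 1 without libraries holding Ptprc at 10 CPM or more, 0 with equal weight and 0 with only the 2 populations compared. On leaving out each animal in turn it ranged from 1 to 8 in P15, with 1 without TENA2524 and 8 without Cdh1624, and from 0 to 3 in P05, where it was 0 without any 1 Tnc animal. Without the replicate block, that is without pairing the populations of an animal, 6 members were called in P15 and 2 in P05. Ndufa4 in P15 stayed called in every alternative that gave a value except with only the 2 populations compared (adjusted p = 0.431). P15 without libraries holding Ptprc gave no value, since none remained. With 3 animals in P15 and libraries down to 508631 counts there, 0% of the genes lowered by 2 on the log2 scale were called in simulated data. The simulated spread was that fitted for genes of a given level, so this share need not hold for the members. Apart from DESeq2, the numbers of all genes called under these settings are not printed here. A higher or lower count of members under a setting is therefore not read as a result about the members. The causes of these differences between settings were not tested.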
